A study of Mus musculus with 4 samples.

Results

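The inner root sheath (IRS) of the hair follicle (HF) was examined in spatial transcriptomes of mouse dorsal skin, as the spots richest in 6 IRS keratins. A spot is a small round area of a slide on which the RNA of a tissue section is captured with a position barcode; it can hold several cells of different types, so the IRS spots are places rich in IRS transcripts and not isolated cells. Each of the 6411 spots with at least 250 detected genes was scored by the mean, over *Krt25*, *Krt27*, *Krt28*, *Krt71*, *Krt72*, and *Krt73*, of the natural log of 1 plus the gene's unique molecular identifiers (UMIs, one per captured RNA molecule) per 10000 UMIs of the spot. The top 5% of spots in each of the 4 slices were taken as IRS spots, which gave 321 members, with 82, 88, 78, and 73 in slices 1 to 4. All animals were *Krox20-CreERT; R26-tdTomato* mice, in which an inducible Cre under the endogenous *Krox20* gene switches on a red reporter, given 4-hydroxytamoxifen at P2 and sampled at P38. The hair cycle stage of these sections is not given in the sources used here, though the study describes follicles in other, stained sections of mice of this genotype and age as telogen, the resting stage. That description is not carried over to the sections used here. In these, the 6 score keratins made up 5.43% to 5.58% of the UMIs of IRS spots, and the stage was not tested. The study describes 1 section of each of 3 mice per slice, so the slices are treated as technical replicates. There was no control group, and no p-value below measures the spread between animals. The p-values rest on the spread between slices, which the test for genes pools in part over all genes. The slices held 26910422, 24128004, 21384253, and 19393026 UMIs in all, of which IRS spots contributed 1696403, 1515569, 1338021, and 1210682. IRS spots were deeper than the other spots of their slice, with median UMIs of 19699, 16665, 16092, and 15658 against 14354, 11699, 11716, and 11485. The slices shared spot barcodes because the same grid was printed on each capture area: 2485 distinct barcodes occurred, 1842 of them in more than 1 slice, and counts were kept apart by slice.

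The IRS is the layered tube between the outer root sheath (ORS) and the hair shaft. Matrix cells of the hair bulb divide and give rise to its Henle layer, Huxley layer, and cuticle, which harden before the shaft does and are shed at the level of the upper follicle. Its cells fill with trichohyalin, a protein that peptidylarginine deiminases (PADI enzymes) convert by citrullination and transglutaminases (TGM enzymes) crosslink to keratin filaments made of a type I and a type II chain. The type I chains *Krt25*, *Krt26*, *Krt27*, and *Krt28* and the type II chains *Krt71*, *Krt72*, and *Krt73* are known for the IRS, with *Krt26*, *Krt72*, and *Krt73* known for the cuticle.

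The genes that defined the spots lie in 2 clusters of the mm10 genome, all on the minus strand. The type I genes follow each other on chromosome 11, with *Krt25* at 99315516 to 99322951, *Krt26* at 99328550 to 99337966, *Krt27* at 99345565 to 99351104, and *Krt28* at 99364872 to 99374903. The type II genes *Krt71* (101733949 to 101743109), *Krt72* (101776172 to 101786460), and *Krt73* (101793308 to 101802346) stand together on chromosome 15. *Krt26* was not in the score and sits between *Krt25* and *Krt27*. Its promoter is shown with those of 4 score genes, which are the 4 whose windows held the GATA letters described below. The windows of *Krt28* and *Krt72* are not printed. Each sequence is the 250 bases before the RefSeq start in GRCm38.p6, read 5′ to 3′ on the gene's strand, and capitals mark TATAAA and the GATA-factor letters AGATAA (with a final A or G) and TGATAA (likewise) found on either strand. The windows are chr11:99322952-99323201, chr11:99337966-99338215, chr11:99351119-99351368, chr15:101743098-101743347, and chr15:101802361-101802610 in the order printed.
Krt25: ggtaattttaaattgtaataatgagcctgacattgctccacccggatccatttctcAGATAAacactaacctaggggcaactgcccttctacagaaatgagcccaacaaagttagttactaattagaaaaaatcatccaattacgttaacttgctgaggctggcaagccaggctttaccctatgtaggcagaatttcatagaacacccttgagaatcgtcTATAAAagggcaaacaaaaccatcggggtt
Krt26: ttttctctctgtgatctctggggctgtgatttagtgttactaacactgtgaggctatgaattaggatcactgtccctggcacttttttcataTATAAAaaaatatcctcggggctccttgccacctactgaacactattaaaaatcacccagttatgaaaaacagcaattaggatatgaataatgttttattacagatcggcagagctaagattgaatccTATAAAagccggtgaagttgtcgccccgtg
Krt27: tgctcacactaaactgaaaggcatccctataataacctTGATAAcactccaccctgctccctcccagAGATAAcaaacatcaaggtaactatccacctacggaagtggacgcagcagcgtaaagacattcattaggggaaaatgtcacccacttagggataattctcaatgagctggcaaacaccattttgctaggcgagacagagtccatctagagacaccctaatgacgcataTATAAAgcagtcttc
Krt71: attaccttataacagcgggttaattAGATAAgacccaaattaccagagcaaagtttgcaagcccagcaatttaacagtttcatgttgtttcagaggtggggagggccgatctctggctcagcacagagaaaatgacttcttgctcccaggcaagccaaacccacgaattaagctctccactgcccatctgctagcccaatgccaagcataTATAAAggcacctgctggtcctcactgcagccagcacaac
Krt73: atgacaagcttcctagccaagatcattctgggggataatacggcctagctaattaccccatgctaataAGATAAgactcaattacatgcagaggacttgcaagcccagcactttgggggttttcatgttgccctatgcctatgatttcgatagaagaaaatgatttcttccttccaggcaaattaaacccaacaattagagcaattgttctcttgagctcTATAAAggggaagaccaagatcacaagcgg
The promoters of 6 of the 7 genes held TATAAA on the gene's strand within the last 50 bases, starting 30 bases before the start in *Krt25*, *Krt26*, *Krt28*, and *Krt73*, 40 in *Krt71*, and 15 in *Krt27*. Of 32851 promoters of the same length in the RefSeq table, 863 (2.63%) held these letters there. The GATA letters occurred in 4 of the 7 windows, those of *Krt25*, *Krt27*, *Krt71*, and *Krt73*, and in 26.5% of all windows. Letters read by LEF and TCF factors, CTTTGAA with either of its last 2 letters as A or T, occurred in 1 of the 7 (*Krt25*) and in 14.8% of all. The 7 genes are related copies, so the shared letters are a description of the family and say nothing of which factor acts there.

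Because the score selected the members, the levels of its genes are given as a description without a test. In counts per 1000000 UMIs of the summed spots (CPM), *Krt25* stood at 14456 in IRS spots and 4718 in the other spots, *Krt27* at 12270 and 4953, *Krt28* at 5436 and 1753, *Krt71* at 16475 and 6426, *Krt72* at 4886 and 1543, and *Krt73* at 1226 and 438 (means of 4 slices). Together the 6 keratins made up 5.43% to 5.58% of the UMIs of IRS spots and 1.92% to 2.08% elsewhere. The score had no gap at the threshold: the lowest member and the highest other spot had 3.990 and 3.990 in slice 1, 4.003 and 4.001 in slice 2, 4.027 and 4.027 in slice 3, and 3.993 and 3.989 in slice 4, and 125 members lay within 0.1 above it and 176 other spots within 0.1 below it. When spots were chosen again by the other 5 keratins, the keratin left out was 2.34 times (*Krt71*) to 2.89 times (*Krt28*) as high in the spots chosen as elsewhere, again as a mean of 4 slices. In each slice 57 to 83 of the spots chosen again were members already, and all 6 keratins belong to the score. These ratios are therefore a description too and no independent check of the label. The label was set beside 19 other genes known for the IRS that the score did not use. Of the 18 with enough counts to test, 16 passed as higher in IRS spots, where 23.3% of all genes tested did. The list was drawn up with results of these data known, so it is no independent check, and 1 of the 16 calls, that of *Sox21*, was lost in 16 of 17 alternatives. Other layers were present in the same spots: 103 of the 321 members were also among the top 5% of spots by hair shaft keratins, whereas 0 were among the spots chosen by proliferation, ORS, or interfollicular epidermis (IFE) genes.

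IRS spots formed short chains and patches in the lower follicle, as the maps of the 4 slices show. On the hexagonal spot grid, 17.8% ± 2.33 (SD, n = 4 slices) of a member's neighbours were members themselves, against 4.63% ± 0.130 of the neighbours of other spots. Positions were then measured in grid steps to spots that other genes had chosen: proliferating matrix spots (top 5% by *Mki67*, *Top2a*, *Cdk1*, *Ube2c*, *Birc5*, and *Cenpf*), hair shaft keratin spots (top 5% by *Krt31*, *Krt32*, *Krt35*, *Krt82*, and *Krt86*), and IFE spots (top 10% by *Krt1*, *Krt10*, *Lor*, *Flg*, and *Flg2*). Members lay 2.02 ± 0.144 steps from the nearest matrix spot, where other spots lay 3.42 ± 0.112 steps away. They lay 5.11 ± 0.303 steps from the nearest IFE spot, against 3.87 ± 0.231. The nearest hair shaft keratin spot was 1.43 ± 0.311 steps from a member and 3.16 ± 0.162 from other spots, and 69.8% ± 7.66 of members had one within 1 step, against 19.9% of other spots. The 103 members that were hair shaft keratin spots themselves counted at 0 steps there, so those values rest in part on the overlap of both selections. With hair shaft keratin spots left out on both sides, an alternative added after the data were seen, the other 218 members lay 2.08 ± 0.379 steps from the nearest one and other spots 3.28 ± 0.173, and 55.9% ± 9.43 of these members had one within 1 step, against 16.9% ± 0.706. IFE and matrix spots counted at 0 among the other spots in the same way, and without them the other spots lay 4.33 ± 0.257 steps from the IFE and 3.61 ± 0.119 from the matrix. All of these differences had the same direction in the 4 slices, and the exact two-sided sign-flip permutation test gave p = 0.13 for each, the smallest value that 4 slices allow. Sections lay close on a slide, so a nearest spot can belong to a neighbouring section.

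The depth of members below the epidermis fell in a narrow band. Of the 321 members, 70 lay 4 steps from the nearest IFE spot, 117 lay 5 steps, and 104 lay 6 steps, while 12 lay 3 steps or nearer, 18 lay 7 steps away, and 0 lay 8 or more steps away. By mean steps from the IFE the order was ORS spots (2.54 ± 0.124; top 5% by *Krt5*, *Krt14*, *Krt17*, *Sox9*, and *Lgr5*), IRS spots (5.11 ± 0.303), hair shaft keratin spots (5.19 ± 0.246), and matrix spots (6.33 ± 0.326). The IRS and hair shaft keratin sets share 103 spots, so their depths are in part the same by construction. Toward the bulb, 129 members lay 1 step and 128 lay 2 steps from a matrix spot.

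**Figure D1:**
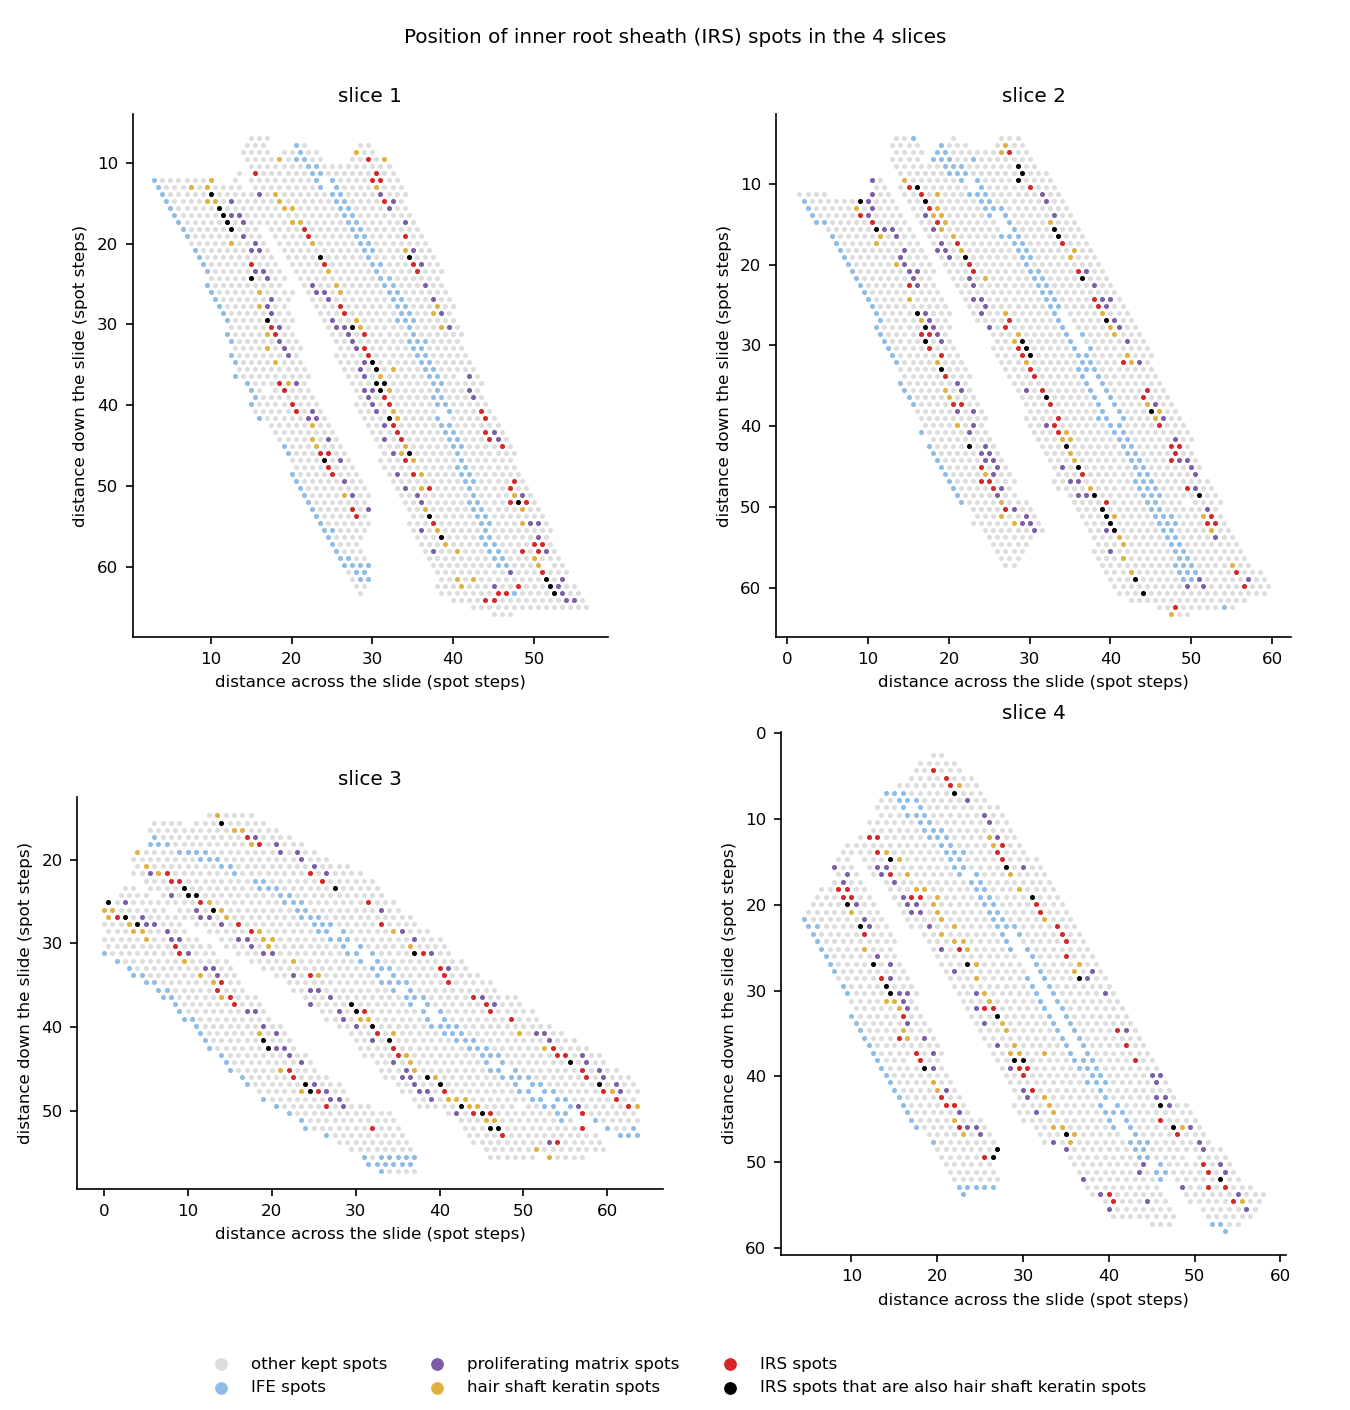
Positions of all kept spots in the 4 slices, in steps along the spot grid on both axes. IRS spots are red, IRS spots that are also hair shaft keratin spots black, proliferating matrix spots purple, other hair shaft keratin spots yellow, IFE spots blue, and the remaining spots grey; the 321 IRS spots lie 2.02 steps from matrix and 5.11 steps from IFE spots on average.

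Members were not alike. *Krt26*, a cuticle keratin outside the score, ranged from 0 to 7257 CPM over the 321 spots with a median of 1188, and 316 spots held at least 1 of its UMIs. *Tchh*, which encodes trichohyalin, ranged from 12627 to 77978 CPM with a median of 25546 and was found in all members. *Gata3*, a transcription factor of IRS cells, was found in 294 members. The Spearman correlation across members, averaged over the 4 slices, was -0.64 between *Krt26* and *Krt25* and -0.50 between *Krt26* and *Krt71*. It was 0.86 between *Krt26* and *Krt72* and 0.81 between *Krt25* and *Krt71*. *Tchh* ran with these keratins (0.55 with *Krt26* and 0.49 with *Krt72*), and *Krt35*, a type I hair shaft keratin, ran against them (-0.53 and -0.48). *Krt73*, also known for the cuticle, did not follow them: its correlation was -0.23 with *Krt26*, -0.12 with *Krt72*, -0.29 with *Tchh*, and 0.29 with *Krt35*, with the same sign in each slice. These correlations describe spots of shared sections, values of 1 spot share its depth, and the choice of members by the score's mean shapes them. That holds for pairs within the score and for those of *Krt26* with score genes, since *Krt26* ran with *Krt72* and a spot low in some score keratins could enter only by being high in others. No p is given.

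The levels of these genes were also read by position along the follicle. In the 82 members at most 4 steps from the IFE, *Krt26* averaged 1830 ± 397 CPM over the slices, falling to 1322 ± 117 CPM in the 117 members at 5 steps and 1059 ± 122 CPM in the 122 members at 6 or more steps. *Krt72* declined in the same order from 5836 ± 556 through 4951 ± 480 to 4382 ± 261 CPM, and *Tchh* from 32540 ± 1851 through 26687 ± 2340 to 25145 ± 2164 CPM. *Krt73* did not decline, with 1073 ± 150, 1272 ± 171, and 1244 ± 126 CPM. *Krt25* ran the other way, with 12380 ± 1993, 14676 ± 1210, and 14851 ± 559 CPM, as did *Krt35* with 356 ± 110, 497 ± 137, and 524 ± 21.8 CPM. The slices disagreed on *Krt25*, since slice 3 had its highest level (15288 CPM) in the class nearest the IFE. Slices 2 and 4 had theirs at 5 steps (15563 and 15274 CPM), and only slice 1 rose through all classes. For *Krt26*, slices 1, 2, and 4 had their highest level in the class nearest the IFE (1832, 2377, and 1660 CPM) and slice 3 had 1450 CPM there and 1490 CPM at 5 steps. *Krt72* likewise peaked at 5 steps in slice 3 (5202, 5645, and 4274 CPM), and *Krt35* did not rise steadily in slice 1 (264, 694, and 513 CPM) or slice 2 (480, 425, and 532 CPM). *Krt72*, *Krt25*, and *Krt73* are score genes, so the choice of spots by their mean shapes how they vary against each other here. These are levels by position, given as a description without a test.

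**Figure D2:**
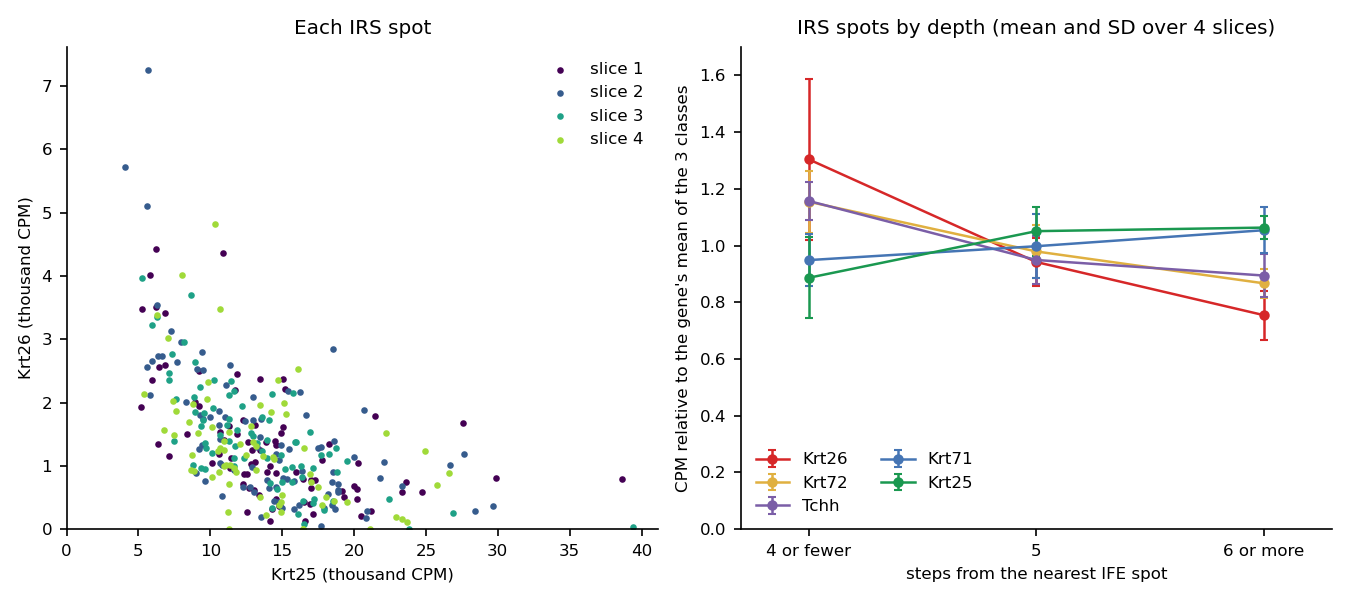
Left, *Krt25* against *Krt26* in each of the 321 IRS spots, both axes in units of 1000 CPM. Right, level of 5 genes in IRS spots grouped by grid steps from the nearest IFE spot, relative to the gene's mean over the classes (mean and SD of 4 slices); *Krt26*, *Krt72*, and *Tchh* are highest in the 82 spots nearest the IFE.

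IRS spots were then compared with all other kept spots across all genes, as sums of UMIs per slice. Of 13454 genes tested outside the score, 3129 (23.3%) were higher and 3113 (23.1%) lower in IRS spots at an adjusted p under 0.05 (edgeR quasi-likelihood test with slice as a block and Benjamini-Hochberg adjustment), and 589 (4.38%) were higher and 1543 (11.5%) lower with a log2 fold change of at least 1 in size. This is the background against which the counts below are read. Fold changes are on edgeR's scale after TMM normalization, on which the median gene stood at -0.04; scaled by library size alone the median moved to -0.27 and the split to 1831 higher and 5119 lower, so a plain ratio of CPM is lower than the fold change given. Members and their neighbours share tissue, so a gene higher here was richer in spots that also held IRS keratin RNA. A spot's level cannot tell more cells of a type from more RNA per cell.

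Of the structural IRS genes outside the score, *Krt26* and *Tchh* were richer in IRS spots in every slice, and *Tchhl1*, described below, was not. *Krt26* reached 1235, 1389, 1352, and 1215 CPM in the IRS spots of slices 1 to 4 and 547, 479, 478, and 473 CPM in other spots. The groups did not overlap, and the log2 fold change was 1.62 ± 0.05 (SE; edgeR adjusted p = 4.34e-27). *Tchh* stood at 28589, 25934, 25693, and 28826 CPM against 13773, 11834, 11063, and 12134 CPM, a log2 fold change of 1.39 ± 0.03. Every IRS value was again above every other value. Among the 18 tested genes of the IRS list, 16 were higher and 1 lower, with a median log2 fold change of 1.01. The 16 included *Crym* (1.59), which encodes a thyroid hormone-binding protein, *Mt4* (1.72), the metallothionein of stratified epithelia, *Gsdma* (1.00), a gasdermin, and *Fabp5* (0.63), a fatty acid-binding protein. The lowest of them was *Sox21* at 0.23, whose CPM were 51.5 in IRS spots and 51.9 in others, higher in 1 of 4 slices. Its call was lost in 16 of 17 alternatives, with 0.07, 0.27, and 0.24 without slices 1, 2, and 4. Summed over the list, IRS spots held 39832 ± 2034 CPM and other spots 22823 ± 1967 CPM, most of it *Tchh*.

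The exceptions in the list were *Cst6* and *Tchhl1*. *Cst6* encodes cystatin M/E, an inhibitor of the proteases that act on cornifying cells, and had 466, 479, 318, and 488 CPM in IRS spots against 4359, 3547, 3530, and 4252 CPM elsewhere. Its log2 fold change was -2.94 ± 0.06. *Tchhl1*, a relative of trichohyalin, had 496, 505, 553, and 754 CPM in IRS spots and 744, 728, 722, and 637 CPM in others, and the groups overlapped (log2 fold change -0.09, edgeR adjusted p = 0.32). Its call depended on the setting: it was called lower in 6 of 17 alternatives, from -0.15 (no low-count filter) to -0.35 (top 2.5% of spots) and at -0.29 without slice 4, the slice in which it was higher in IRS spots, and it was past the threshold in the other direction with the top 10% of spots (0.21) and with the summed share as score (0.59). Of the list's remaining gene, *Gsdma3*, no UMI was counted in members, where 3 UMIs would be 0.521 CPM.

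The enzymes that modify and crosslink trichohyalin were divided by family member. *Padi3*, the deiminase that acts on trichohyalin, stood at 1746, 1780, 1919, and 1699 CPM in IRS spots and 639, 603, 676, and 635 CPM in others, with no overlap and a log2 fold change of 1.71 ± 0.04. *Padi4* (1.52) and *Padi1* (1.26) were higher too. *Padi2*, known from other tissues, was lower (-2.17 ± 0.85) at 0.393 ± 0.455 against 1.88 ± 0.480 CPM, and the call was lost in 6 of 14 alternatives, namely without slice 1 (-1.75), slice 2 (-1.83), or slice 3 (-2.59), with DESeq2 (-2.22), with the summed share as score (-1.30), and with the top 2.5% of spots (-1.25). Of the transglutaminases, *Tgm1* (1.24), *Tgm3* (1.17), and *Tgm6* (0.67) were higher and *Tgm2*, the ubiquitous tissue transglutaminase, was lower (-1.38). *Tgm5* was not past the threshold, with 4.46 ± 2.60 against 5.96 ± 1.08 CPM. The counts were 6 higher and 2 lower of 9 tested, and the list summed to 2418 ± 121 CPM in IRS spots and 991 ± 40.5 CPM in others.

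**Figure D3:**
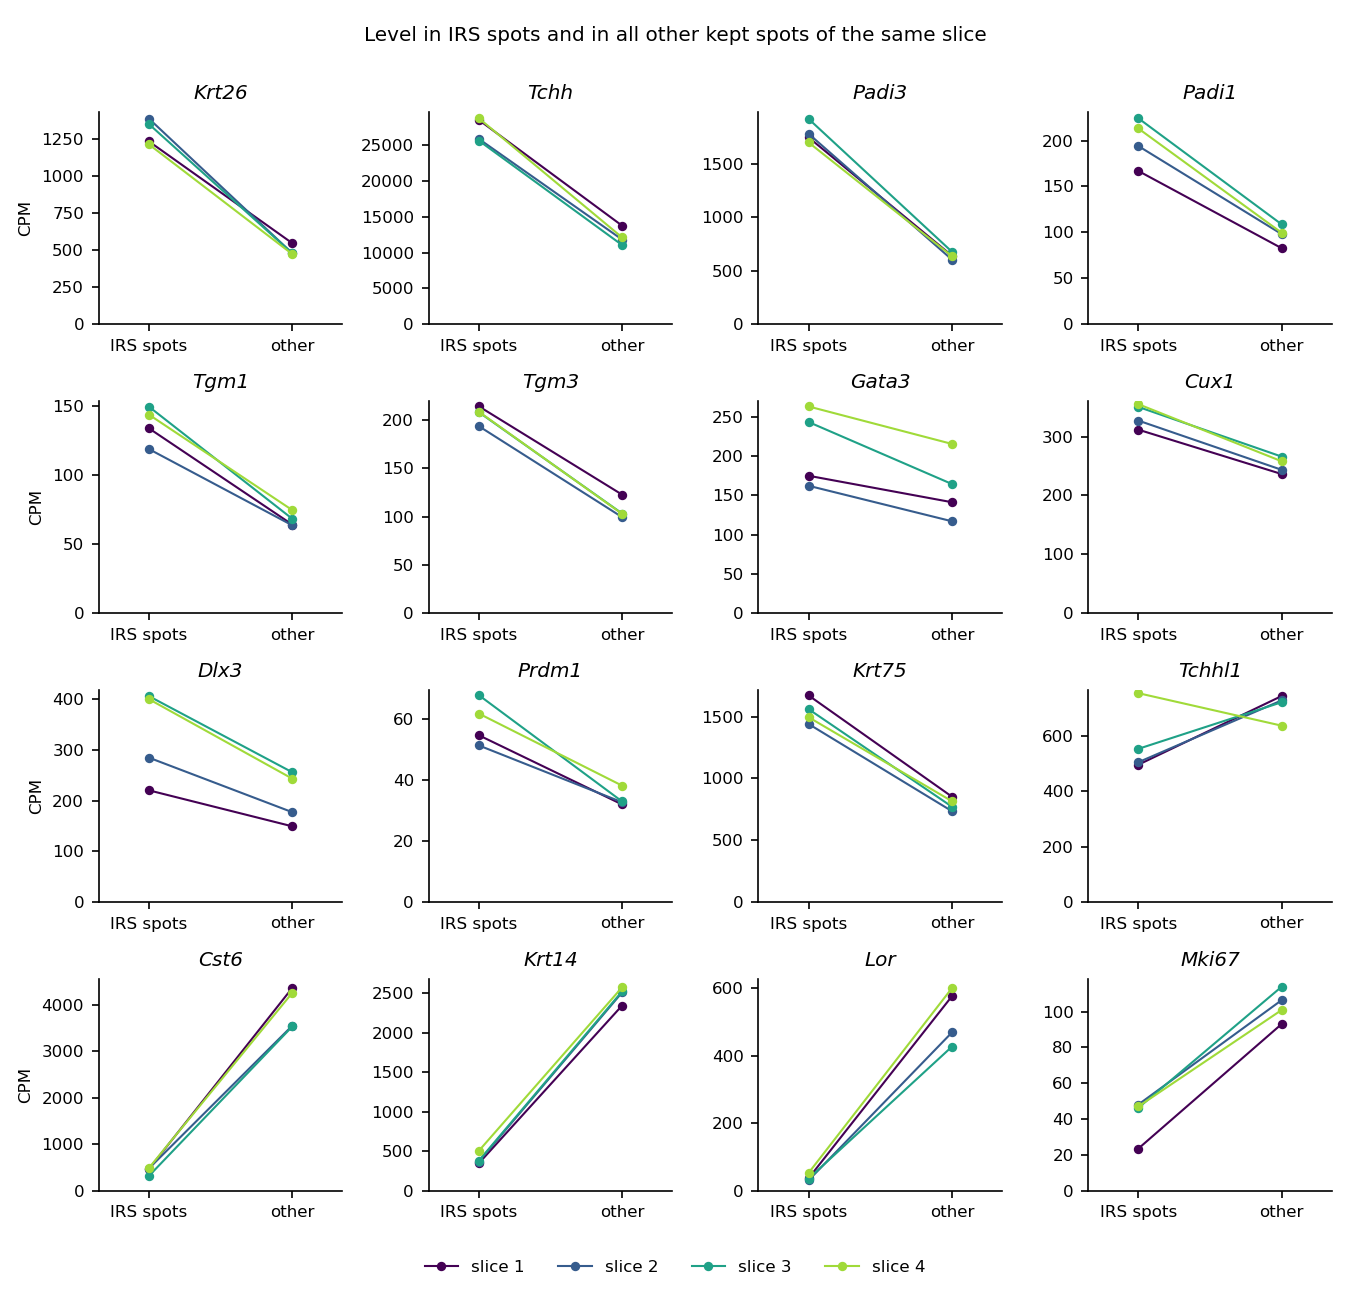
Level of 16 genes in CPM (linear axes from 0, a scale for each gene) in IRS spots and in all other spots, with a line joining both values of each of the 4 slices. *Krt26*, *Tchh*, and *Padi3* are higher in IRS spots in all 4 slices, *Cst6*, *Krt14*, *Lor*, and *Mki67* lower in all 4, and *Tchhl1* overlaps.

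Regulators of hair lineages were found in both directions. *Gata3*, needed for IRS differentiation, had 175, 162, 244, and 264 CPM in IRS spots against 141, 117, 165, and 216 CPM. It was higher in each slice, but the groups overlapped because slices 3 and 4 ran high in both (log2 fold change 0.63 ± 0.06). *Cux1*, a homeobox gene whose loss disturbs the IRS, was at 336 ± 20.3 against 251 ± 13.5 CPM (0.65), without overlap. *Dlx3* (0.88) and *Prdm1* (1.02) were higher as well. Of 31 hair lineage transcription factors tested, 15 were higher and 8 lower. *Foxn1*, the nude gene, which drives hair keratin expression, was at 209 ± 16.5 against 84.9 ± 8.14 CPM (1.53), and *Ovol1* (1.12), *Grhl1* (1.10), and *Msx2* (0.91) were higher. *Gata6* (-2.89), of the upper follicle and sebaceous duct, *Barx2* (-1.79), and *Sox9* (-1.13), of the ORS and its stem cells, were lower. The *Gata6* call rested on 0.295 ± 0.589 against 3.12 ± 0.830 CPM and was lost in 1 of 15 alternatives. *Lef1*, the Wnt-responsive factor of the hair-forming matrix, was at 42.4 ± 4.50 against 46.5 ± 5.58 CPM and not past the threshold.

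The companion layer, a single sheet that binds the IRS to the ORS, was partly represented. Its keratin *Krt75* had 1672, 1441, 1561, and 1496 CPM in IRS spots and 852, 735, 771, and 815 CPM in others, without overlap (log2 fold change 1.18 ± 0.04). *Tubb6*, a beta-tubulin, was higher as well (1.38), and *Krt6a* lower (-1.71). *Krt17* was called higher at 0.17 ± 0.04 although its CPM were 2360 ± 101 and 2451 ± 163, and it turned to -0.05 when scaled by library size alone and to -0.04 with thinned spots. *Krt16* was not past the threshold (0.15), came past it as higher in 1 of 17 alternatives, and ran from -0.20 to 0.59 over the settings. The counts were 3 higher and 1 lower of 5 tested.

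Most of the desmosome genes tested were higher in IRS spots. Of 16 desmosome genes tested, 11 were higher and 3 lower. *Dsc1*, a desmocollin of differentiated layers, was at 30.7 ± 1.51 against 12.6 ± 0.755 CPM (1.52), *Pkp2* and *Pkp3*, plakophilins that link desmosomes to keratin, had log2 fold changes of 1.51 and 1.23, and *Evpl*, which encodes envoplakin, 1.23. *Dsg3*, the desmoglein of basal cells, fell to 35.5 ± 4.74 from 90.1 ± 10.7 CPM (-1.11). Proteases and their inhibitors split evenly, with 11 higher and 11 lower of 26 tested. *Capn12*, a calpain of the hair follicle, was at 177 ± 28.1 against 47.9 ± 3.95 CPM (2.10), while the kallikreins *Klk11* (-2.87) and *Klk8* (-2.18), known from the epidermis, were lower.

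Most keratins of the hair shaft were higher in IRS spots. Of the type I hair keratins 7 of 8 tested were higher and 0 lower (median log2 fold change 1.34), and of the type II hair keratins 5 of 6 were higher and 1 lower (median 1.54). *Krt32*, the type I keratin of the shaft cuticle, had 776, 867, 819, and 537 CPM in IRS spots and 163, 151, 155, and 126 CPM elsewhere, a log2 fold change of 2.55 ± 0.06. *Krt31*, of the shaft cortex, varied more, with 1380, 1414, 946, and 484 CPM against 540, 463, 308, and 171 CPM (1.75), and slice 4 was lowest in both. *Krt87* (1.93), *Krt82* (1.75), *Krt83* (1.68), *Krt33a* (1.63), *Krt33b* (1.47), and *Krt81* (1.40) were higher. Leaving out every hair shaft keratin spot, an alternative added after the data were seen, kept *Krt32* at 2.26, *Krt31* at 1.29, and *Krt87* at 1.57, *Krt26* at 1.55, *Tchh* at 1.41, and *Padi3* at 1.76. It left 2479 genes higher and 2632 lower, of which 2429 and 2505 were among those called with all spots. Keratin-associated proteins, the matrix that embeds hair keratins, went mostly the other way: of 49 Krtap genes tested 12 were higher, led by *Krtap11-1* (1.97), *Krtap24-1*, *Krtap26-1*, and *Krtap13-1*, and 33 lower. Their summed level was 30304 ± 5354 CPM in IRS spots and 28567 ± 5913 CPM in others, which overlapped.

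Levels by distance from the IRS spots differed between genes and are given without a test. *Krt26* averaged 1298 ± 85.7 CPM in IRS spots, 746 ± 77.4 CPM 1 step away, 486 ± 26.7 CPM 2 steps away, and 271 ± 70.3 CPM at 6 or more steps. *Krt32* dropped more sharply, from 750 ± 147 to 232 ± 30.2 CPM within 1 step and 130 ± 8.33 CPM at 2 steps. *Foxn1* went from 209 ± 16.5 to 122 ± 13.4 and 83.4 ± 7.04 CPM over the same steps. *Krt14*, the basal keratin of ORS and epidermis, rose from 400 ± 70.8 CPM in IRS spots to 849 ± 88.3 CPM at 1 step and 4008 ± 442 CPM at 4 steps. Other genes of the follicle were not at their highest in the IRS spots. *Krt35* averaged 475 ± 44.6 CPM in IRS spots and 686 ± 65.7 CPM at 1 step, *Hoxc13*, a homeobox regulator of hair keratins, 236 ± 12.3 and 265 ± 22.9 CPM, and *Lef1* 42.4 ± 4.50 and 71.3 ± 8.03 CPM. *Gata3* averaged 211 ± 49.9 CPM in IRS spots, 143 ± 43.4 CPM at 3 steps, and 266 ± 87.0 CPM at 6 or more steps. The summed IRS list went from 39832 ± 2034 CPM to 20609 ± 1860 CPM at 3 steps and was at 25384 ± 2012 CPM at 5 steps.

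**Figure D4:**
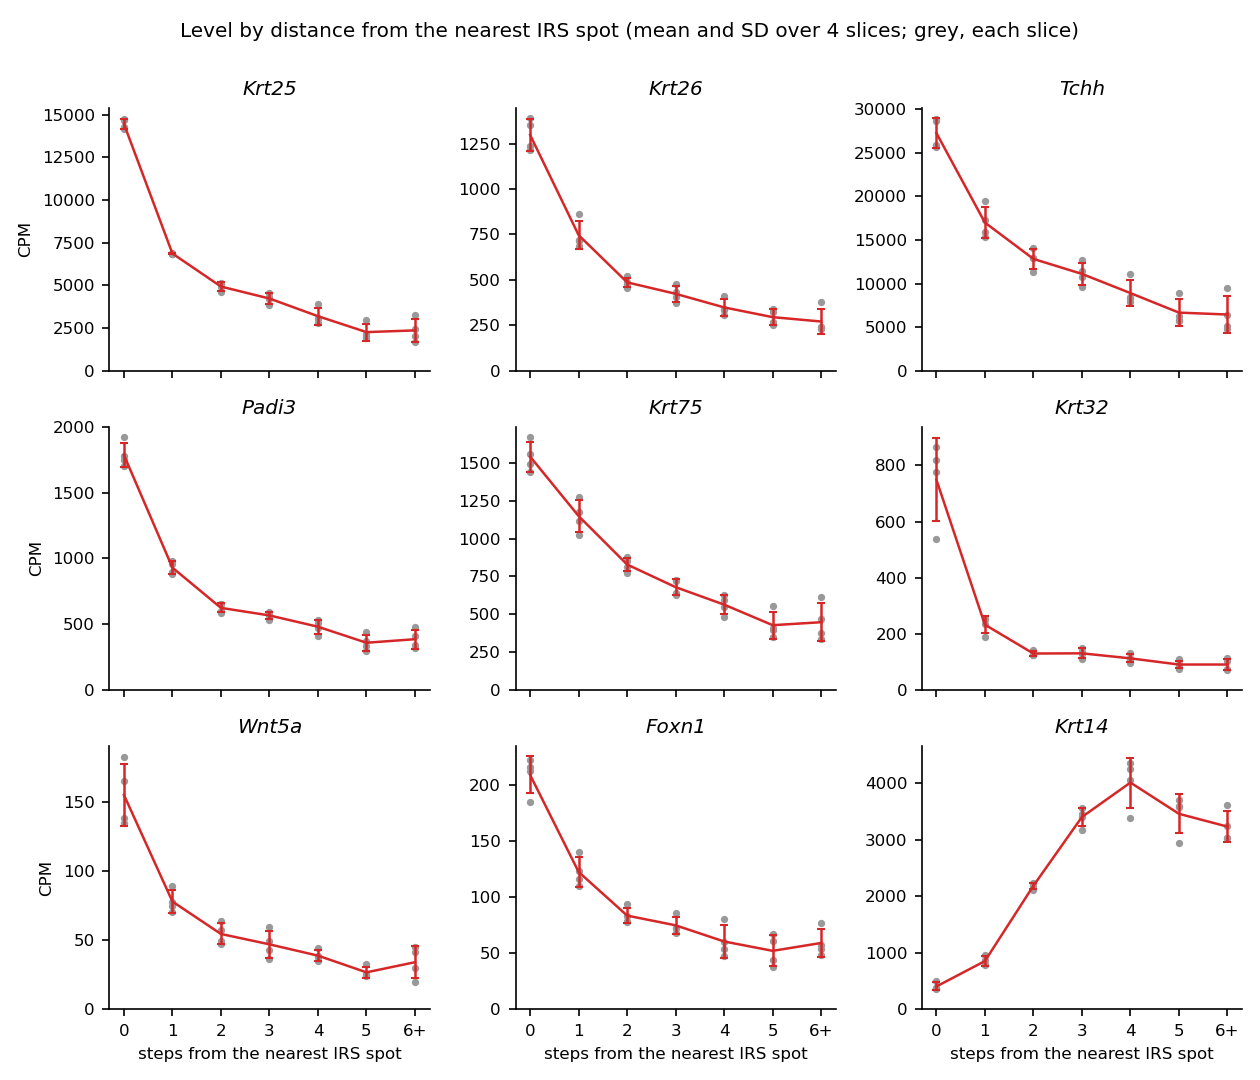
Level of 9 genes in CPM by steps from the nearest IRS spot, where 0 is the IRS spots and the last class is 6 or more steps. Red lines and bars are the mean and SD of 4 slices and grey points the slices, on linear axes from 0; *Krt26* falls from 1298 to 271 CPM and *Krt14* rises from 400 to 4008 CPM at 4 steps.

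Genes of cell division were lower throughout. All 20 proliferation genes tested were lower in IRS spots, with a median log2 fold change of -0.97 against -0.04 for all genes. *Mki67*, which marks cycling cells, had 23.6, 48.2, 46.3, and 47.1 CPM in IRS spots and 93.2, 107, 114, and 101 CPM in others (log2 fold change -1.13 ± 0.10). *Hmgb2*, a chromatin protein of dividing cells, had 49.97 ± 1.203 against 158 ± 5.95 CPM (-1.44), and *Ube2c*, of the mitotic ubiquitin machinery, 32.2 ± 5.72 against 95.9 ± 5.52 CPM (-1.35). Together the list summed to 1079 ± 84.2 and 2246 ± 78.8 CPM.

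Signalling genes were found in both directions. In the Wnt pathway 12 of 31 genes tested were higher and 8 lower. The ligand *Wnt5a* had 139, 135, 165, and 183 CPM in IRS spots and 47.5, 50.5, 55.2, and 61.9 CPM elsewhere, without overlap (1.75 ± 0.07). *Wnt3a* (21.1 ± 4.05 against 4.67 ± 1.05 CPM; 2.42) and *Wnt11* (24.5 ± 3.75 against 8.26 ± 0.826 CPM; 1.79) were higher too. The secreted inhibitor *Sfrp2* was lower (-2.46), and *Axin2*, a common readout of the beta-catenin branch, was at 11.3 ± 3.77 against 13.5 ± 1.48 CPM and not past the threshold. In the BMP pathway 10 of 19 were higher and 4 lower. *Smad7*, an intracellular inhibitor, was at 82.0 ± 15.6 against 36.8 ± 1.98 CPM (1.37), the ligand *Bmp2* at 36.6 ± 3.61 against 19.6 ± 1.27 CPM (1.13), and the antagonist *Fst* at 2.48 ± 1.36 against 19.0 ± 3.13 CPM (-2.71). The receptor *Bmpr1b* was lower (-1.79), a call lost in 5 of 15 alternatives, from -1.85 (DESeq2) to -0.90 (summed share as score) and including the fit without slice 2 (-1.42).

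Of 19 FGF and EGF pathway genes tested, 10 were higher and 5 lower. The EGF receptor ligand *Areg* was at 25.6 ± 6.604 against 7.76 ± 0.921 CPM (1.94), and *Fgf22* at 75.4 ± 10.5 against 26.7 ± 2.22 CPM (1.73). *Fgf5*, which limits the growth phase of hair, was at 69.6 ± 10.8 against 39.2 ± 5.32 CPM (1.05), and the dermal ligand *Fgf7* was lower (-1.89), a call lost in 5 of 15 alternatives, among them those without slice 2 (-1.85) or slice 4 (-1.53), with DESeq2 (-1.94), with thinned spots (-2.28), and without hair shaft keratin spots (-1.39). Of 18 Notch pathway genes 4 were higher and 7 lower. The receptor *Notch2* was at 94.7 ± 2.18 against 52.7 ± 3.87 CPM (1.08) and the target *Heyl* at 41.6 ± 7.50 against 24.6 ± 3.36 CPM (0.98), while *Hey1* (-1.26) and *Hes6* (-1.06) were lower, the former not past the threshold in 7 of 14 alternatives, from -1.56 (top 2.5% of spots) to -0.53 (top 10%) and including those without slice 1 (-1.26), slice 3 (-1.36), or slice 4 (-0.92). Of 9 Hedgehog genes 1 was higher and 4 lower, namely *Hhip* (-2.29), *Gli2* (-0.63), *Smo* (-0.42), and *Gli3* (-0.40). The *Gli2* call was lost in 6 of 16 alternatives and the *Gli3* call in 7 of 17, both among them without slice 1 (-0.65 and -0.36) or slice 2 (-0.46 and -0.44), with DESeq2 (-0.64 and -0.41), and with thinned spots (-0.47 and -0.20), and that of *Gli3* also without slice 3 (-0.35). The *Smo* call was also lost with the summed share as score (-0.23) and with thinned spots (-0.48), 2 of its 17 alternatives, and the *Hhip* call with thinned spots (-1.27), 1 of 15. *Shh* itself was at 5.81 ± 1.52 against 5.85 ± 1.10 CPM. *Grem1*, *Fgfr4*, and *Cd3e* had no UMI in members, which allows up to the same 0.521 CPM, and averaged 2.40, 1.47, and 1.93 CPM elsewhere.

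Markers of other tissues of the skin were mostly lower in IRS spots. Of 10 IFE markers 9 were lower, with a median log2 fold change of -3.36. *Lor*, the main protein of the epidermal cornified envelope, had 37.1, 31.0, 35.9, and 52.9 CPM against 577, 470, 428, and 601 CPM (-3.52), and the remaining one, *Ivl*, was higher at 348 ± 42.2 against 208 ± 20.8 CPM (0.96). Of 10 ORS markers 9 were lower and 0 higher. *Krt14* had 347, 369, 380, and 504 CPM against 2344, 2511, 2523, and 2575 CPM (-2.43), and *Krt5*, its partner, was lower too (-1.46). All 8 muscle, 8 fibroblast, and 8 immune markers tested were lower, as *Myl1* (-3.64), *Col1a2* (-3.04), and *Cd74* (-2.24) show. Among lists with fewer calls, 4 of 7 Schwann cell, 5 of 8 endothelial, 4 of 8 dermal papilla, and 6 of 10 sebaceous gland markers were lower. The call of the endothelial marker *Flt1* was lost in 6 of 16 alternatives. *Elovl3*, an elongase also used as a sebaceous marker, was higher (136 ± 15.9 against 44.9 ± 2.85 CPM, 1.82). Of 10 melanocyte markers 2 were higher, *Mitf* (0.84) and *Gpnmb* (0.75), and 6 lower, and the list's sum was 819 ± 28.2 against 904 ± 47.4 CPM. Among the lower ones, the *Oca2* call was lost in 6 of 16 alternatives and the *Slc45a2* call in 5 of 17. Of 8 adipocyte markers *Fabp4* was higher (1723 ± 160 against 1093 ± 115 CPM, 0.88) and 3 lower, with a sum of 2010 ± 172 against 1858 ± 29.2 CPM. Mitochondrially encoded genes, which can move with RNA quality, were lower for 12 of 13 tested, and made up 2.42% to 3.76% of the UMIs of IRS spots and 3.51% to 5.32% elsewhere. Depth was varied only by thinning each spot to 5500 UMIs, which also changed the members and gave 1626 genes higher and 1750 lower. The part that mitochondrial share or neighbouring tissue plays in these differences was not tested.

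**Figure D5:**
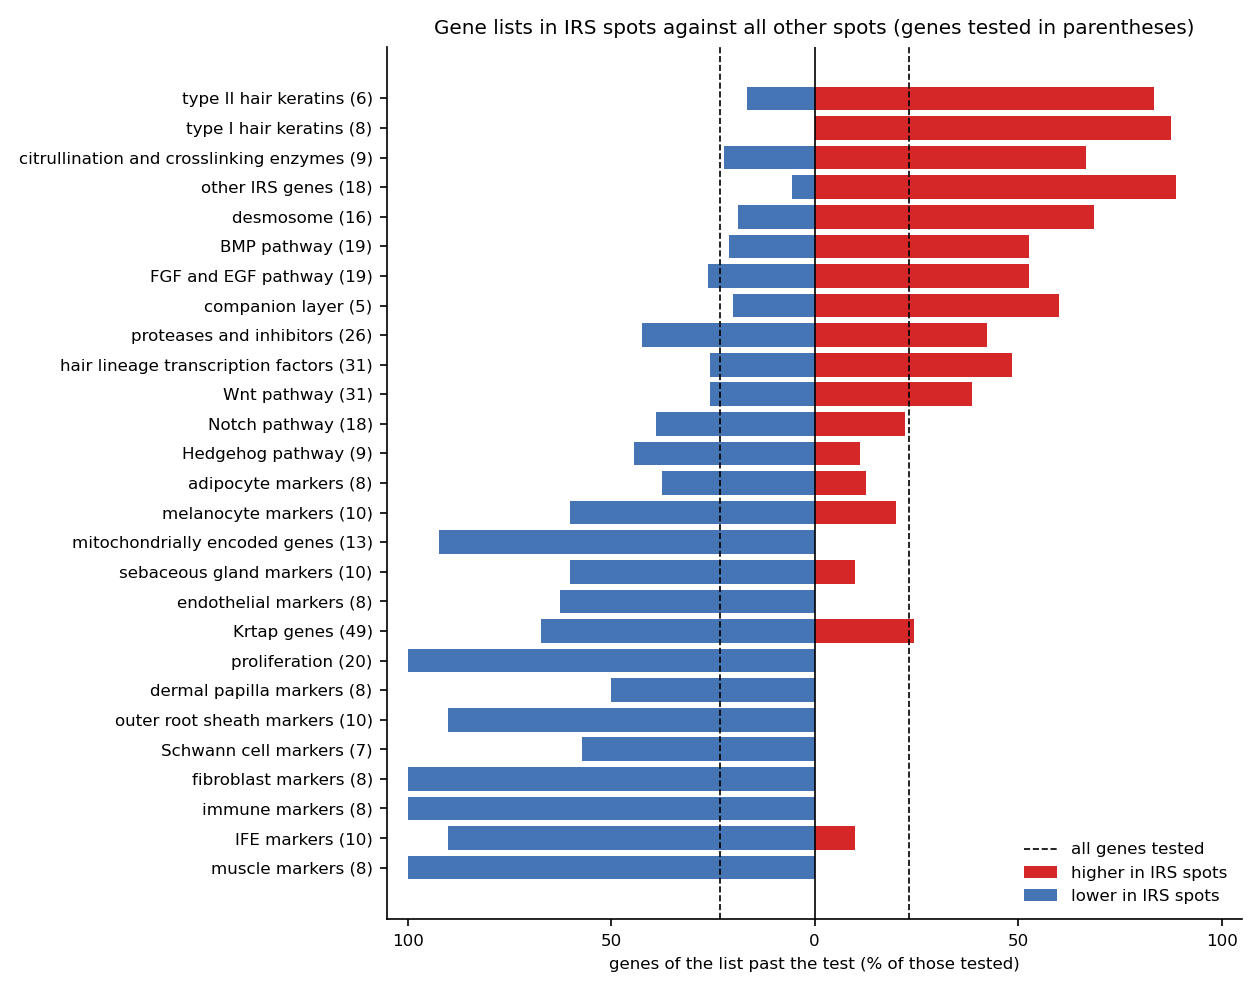
Percent of the tested genes of each list called higher (right) or lower (left) in IRS spots than in all other spots. Dashed lines mark the background over all genes, 23.3% higher and 23.1% lower; the IRS list stands at 16 of 18 higher and the proliferation list at 20 of 20 lower.

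Among all genes with at least 20 CPM in either part, the largest fold changes above 0 were those of the predicted genes *Gm32585* (2.83) and *Gm13490* (2.43), *Krt32*, and *Wnt3a*. They were followed by *Dusp2* (311 ± 55.1 against 69.0 ± 9.75 CPM, 2.39), a phosphatase of MAP kinases, and *Cldn14* (30.4 ± 4.61 against 6.95 ± 0.742 CPM, 2.37), a tight junction claudin. *Ctps*, which encodes CTP synthase, was at 704 ± 126 against 194 ± 26.2 CPM (2.08), and *Tubb3*, a beta-tubulin best known from neurons, at 80.7 ± 11.8 against 22.6 ± 1.49 CPM (2.07). *Avp*, the vasopressin gene, was at 45.3 ± 8.55 against 13.0 ± 1.45 CPM (2.04). *Actbl2* (2.31), *Srms* (2.15), *Il1f10* (2.09), and *Ly6g6d* (2.08) had changes of like size. The largest in the other direction were genes of muscle, such as *Pdlim3* (-4.59) and *Myot* (-4.50), and of the cornified epidermis, such as *Lce1c* (-4.15), together with *Car6*, a secreted carbonic anhydrase (40.9 ± 11.1 against 673 ± 74.1 CPM, -3.81). *Egr2*, which encodes KROX20 and was added here as the study's gene and not by the naming rule, had 17.7, 13.2, 21.7, and 17.3 CPM in IRS spots and 31.8, 35.5, 30.8, and 40.5 CPM in others, without overlap (-0.76 ± 0.14). By part it averaged 81.1 ± 12.1 CPM in ORS, 45.8 CPM in IFE, 18.9 CPM in hair shaft keratin, and 15.3 CPM in matrix spots.

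Matrix spots, where the dividing precursors of the IRS lie, were compared next. Outside the genes of both scores, 3147 (32%) of 9838 genes were higher and 3176 (32.3%) lower in IRS spots. Of the 18 genes of the IRS list 16 were higher and 2 lower, with a median log2 fold change of 2.41, and *Krt26* (1298 ± 85.7 against 131 CPM, 3.53) was among the highest. *Cux1* (-0.24) and *Sox21* (-0.65) were the lower ones, so both regulators were richer in the matrix. All 5 companion layer genes, 6 of 7 citrullination and crosslinking enzymes, and 45 of 45 Krtap genes tested were higher. The largest increases were *Cldn14* (4.28), *Ly6g6d* (4.07), *Gprc5a* (4.03), and *Krt32* (3.96). *Elf5*, an epithelial Ets factor, was higher (3.63), whereas *Lef1* (-0.98) and *Axin2* (-0.67) and all 9 Hedgehog genes tested were lower. Besides mitotic genes such as *Bub1b* (-3.81) and *Kif11* (-3.31), the largest decreases were those of *Myb* (-3.51) and of the metallothioneins *Mt2* (94.2 ± 16.0 against 1436 ± 61.6 CPM, -3.72) and *Mt1* (116 ± 12.2 against 1467 ± 79.7 CPM, -3.46). All 14 proliferation genes outside the matrix score were lower, a list closely related to the genes that chose the matrix spots. Markers of other tissue went both ways. Lower were 8 of 8 muscle markers (median log2 fold change -2.06), 6 of 8 fibroblast markers, and both dermal papilla markers tested (median -2.54). Higher were 8 of 10 ORS markers (median 0.59, 1 lower), 3 of 8 IFE markers, 3 of 6 sebaceous gland markers (2 lower), and 2 of 5 immune markers. Their part in the other differences from matrix spots was not tested.

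Against ORS spots, 2387 (26.7%) of 8954 genes were higher and 2389 (26.7%) lower. The IRS list again had 16 higher and 2 lower of 18, the lower ones being *Cst6* (-3.46) and *Tchhl1* (-0.36), with a median of 1.349. *Msx2* (2.45), *Lef1* (2.09), and *Foxn1* (1.97) led the transcription factors, 15 of 27 of which were higher, and *Barx2* (-3.37) was the lowest. *Avp* (45.3 ± 8.55 against 2.84 ± 0.745 CPM, 4.11), *Mfsd2a* (3.53), a lipid transporter, and *Sp6* (403 ± 45.4 against 47.9 ± 14.6 CPM, 3.25), a factor of hair and tooth epithelium, were among the largest increases. All 7 melanocyte markers tested were higher. The largest decreases were transporter and channel genes such as *Trpm6* (-6.38), *Slc15a1* (-5.21), and *Slc4a1* (-5.25), and the inhibitor *Spink12* (-5.66).

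The hair shaft lies inside the IRS, and its spots were the most alike. With the 103 shared spots left out of both, 280 (3.63%) of 7721 genes were higher and 670 (8.68%) lower in IRS spots, and 47 higher and 281 lower with DESeq2. Within the IRS list 3 genes were higher, *Cux1* (0.51), *Padi3* (0.22), and *Tchh* (0.17), and 6 were lower, among them *Mt4* (-0.96), *Tgm3* (-0.86), *Prdm1* (-0.70), and *Krt26* (-0.28), so shaft keratin spots held slightly more *Krt26* than IRS spots did. *Wnt5a* (0.75), *Wnt11* (0.99), and the receptor *Fzd5* (0.98) were higher, and 6 of 27 Wnt genes were higher and 1 lower. *Ero1l*, an oxidase of disulfide formation, was at 291 ± 18.4 against 127 ± 6.57 CPM (1.13), *Kcnk16*, a potassium channel, at 104.7 ± 20.8 against 39.7 ± 5.71 CPM (1.30), and *Klk5*, a kallikrein, at 27.7 ± 7.31 against 10.96 ± 1.701 CPM (1.24). Lower were *Snai3*, a zinc-finger factor (13.6 ± 3.00 against 68.3 ± 11.4 CPM, -2.41), *Sprr1b*, a cornified envelope gene (132 ± 22.8 against 507 ± 64.8 CPM, -2.03), and *Krtap13-1* (-1.94), with 31 of 46 Krtap genes and 6 of 8 melanocyte markers. All 8 muscle markers were lower as well, and their part in the other differences was not tested.

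Within the IRS, the 129 members next to a matrix spot (30, 37, 31, and 31 in slices 1 to 4) were compared with the 192 members farther away (52, 51, 47, and 42). Of 6735 genes 1 (0.0148%) was higher and 33 (0.49%) lower near the matrix. *Mt2*, high in the matrix itself, was the higher one at 123 ± 22.0 against 72.7 ± 12.4 CPM (0.72 ± 0.13, edgeR adjusted p = 0.016). Of the 33 lower genes 16 were Krtap genes, out of 44 tested, led by *Krtap19-1* (24.1 ± 4.94 against 55.9 ± 20.6 CPM, -1.24) and *Krtap10-4* (-1.10), and *Barx2* (-1.30) and *Cst6* (-0.62) were others. *Krt26* was at 1166 ± 126 near and 1404 ± 88.6 CPM away and not past the threshold. Without the slice as a block, edgeR called 0 genes, with 430 at an unadjusted p under 0.05, as did DESeq2, with 97, and leaving out slice 1 left 0 calls while leaving out slice 2 gave 9 higher and 130 lower.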

How the data were processed

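Spatial transcriptomes (10x Genomics Visium, fresh-frozen skin sections) were sequenced by the authors and processed with Space Ranger 2.0.1 on mm10, and the deposited matrices hold raw UMI counts per gene and spot for 4 slices (32286 genes; 32235 identifiers were found in GENCODE M21). The authors left out 1 distorted section, which their figure caption calls the fourth. Whether that is slice 4, and which spots belong to it or to each mouse, is not given in the sources used here. All spots in the matrices with at least 250 genes were used. Without slice 4, 2816 genes were higher and 2994 lower against all other spots. *CreERT*, tdTomato, and *Krt85* are not analysed here. The members and gene lists were chosen with earlier results of these data known, so no list is independent evidence.

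Counts were summed per slice and part (8 sums a comparison) and tested with edgeR 4.0.16 in R 4.3.3 (TMM, filterByExpr, quasi-likelihood F-test, Benjamini-Hochberg over all genes fitted, threshold 0.05), with the slice as a block because both sums of a slice come from the same sections; deviations of the paired sums correlated at 0.206, 0.120, 0.039, and 0.126 in slices 1 to 4. The score genes stayed in library sizes and out of all counts of calls. The SD values cover the spread of slices only. Each SE was derived from the fold change and its F statistic, in which edgeR pools the spread in part over genes. Neither covers the spread of animals. Named genes were all of the IRS, enzyme, and companion layer lists, up to 4 called genes with the largest change of each other list, and the 15 highest and 10 lowest changes of at least 20 CPM (10 and 10 in the other comparisons); further genes named in the report beside these were chosen after their values were seen. Positions were compared with exact sign-flip permutation tests, computed by listing all sign changes in Python 3.11.15. On simulated counts for the comparison with all other spots, the test recovered 80.5% of the 200 genes that had been given a log2 difference of 1, out of 13363 genes, and 6.40% of its calls were false. In the other comparisons 92.5% to 95% were recovered and 0.529% to 7.46% of calls were false. The simulation had no slice effect and the same dispersion for every gene. Only well-counted genes were changed, as many up as down. In the real data far more genes were called, so these rates cannot be carried over to them. Alternatives covered the normalization, filters, score, share of spots taken as members, depth per spot, block, and tool (DESeq2 1.42.0), and each slice left out. Promoters are from RefSeq (GRCm38.p6).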

Additional observations from a re-analysis of the deposited data

Results flagged for a closer look

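Of 60 sets of 4 slice values examined, 4 had 1 slice apart from the others by Dixon's criterion, and chance alone would mark about 1 in 20. In slice 1, 2.439% of IRS spots lay within 1 step of an IFE spot, and 0% in the other slices. In slice 3, *Cst6* stood at 318.38 CPM in IRS spots, below the other slices. Also in slice 3, the citrullination and crosslinking enzymes summed to 2597.9 CPM in IRS spots, above the others. In slice 4, muscle markers summed to 788.81 CPM in IRS spots, against 481 to 525 CPM in the other slices.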

How the results depend on the processing

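Limits first: the slices share 3 mice, so no value speaks for animals; spots mix cells; and *Gata6*, *Padi2*, and genes with few UMIs per slice rest on low counts. For the 144 genes named in the comparison with all other spots, 2410 values under alternatives were computed: 2310 kept direction and side of the threshold, 83 kept direction and were no longer past it, 7 came past it, and 10 reversed, all among genes with changes close to 0. These were *Tchhl1* (0.59 with the summed share as score, 0.21 with the top 10%), *Tgm5* (from -0.4815 to 0.0720 over the fits without 1 slice, above 0 without slice 1 at 0.0215 and without slice 4), *Krt16* (-0.0825 by library size, -0.0394 with the summed share, -0.20 with thinned spots, -0.0918 with the top 2.5%), and *Krt17* (-0.0540 by library size, -0.0390 with thinned spots). Genes higher and lower against all other spots numbered 1831 and 5119 by library size alone and 1626 and 1750 with each spot thinned to 5500 UMIs, a setting that also left out 563 shallower spots and chose 292 members, 252 of them shared. Against hair shaft keratin spots, DESeq2 called 47 and 281, the fit with no replicate block 129 higher, and leaving out 1 slice 150 to 225 higher. Against ORS spots, DESeq2 called 1483 and 1559, and the top 2.5% of spots 1565 and 1555. For members near the matrix, DESeq2 and the fit with no replicate block called 0 and 0, and leaving out 1 slice gave 0 to 9 higher and 0 to 130 lower (0 lower without slice 1, 130 without slice 2, 8 without slice 3, and 13 without slice 4). The neighbour share difference was 7.61 percentage points with the top 2.5% and 23.9 with the top 10%, where more spots are members by construction, and the difference in steps to the matrix was -1.14 and -1.23. Apart from that construction, the cause of these changes was not tested.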
